A study of Homo sapiens with 8 samples.

Results

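The mitochondrial genome and the nuclear genes that copy it, transcribe it and process its RNA were examined in EndoC-βH5 cells after exposure to pro-inflammatory cytokines. The members were every gene that the deposited table places on the mitochondrial chromosome (21 genes) and 24 nuclear genes named by symbol, all 24 of which were listed, so that 45 of the 16525 listed genes were described. GENCODE release 29 holds 37 mitochondrial genes, and the other 16, all tRNA genes, were not analysed here. EndoC-βH5 cells are a line of human beta cells that release insulin in response to glucose. 4 libraries came from untreated control cells and 4 from cells given recombinant IL-1β, IFNγ and TNFα together for 48 h, with the same cell line, medium and culture plates in both conditions. The labels do not say that the libraries of a condition came from separate cultures, so the p-values measure the spread between these libraries, which may be technical. Each cytokine library shares the start of its name with 1 control library, and these pairs are called A, B, C and D; the names of A and B have their middle part in common, as do those of C and D.

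Human mitochondrial DNA is a small circle that encodes subunits of the respiratory chain and ATP synthase together with the rRNAs and tRNAs needed to translate them. The mitochondrial RNA polymerase, with its accessory factors TFAM and TFB2M, transcribes each strand as a long precursor, and tRNAs that lie between the other genes are cut out to release mRNAs and rRNAs. Most genes are read from the heavy-strand promoter, while MT-ND6 and a minority of the tRNAs are read in the opposite direction from the light-strand promoter; they are called heavy-strand and light-strand genes here. Nuclear-encoded proteins replicate the genome, stabilise the mRNAs and degrade surplus RNA, much of it antisense RNA from the light strand. In beta cells oxidative phosphorylation supplies the ATP that couples glucose to insulin release.

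The deposited values are CPM, the reads on a gene scaled to the total reads of its library. Between 36956294 and 40117636 reads fell on listed genes in control libraries and between 36577438 and 39348935 in cytokine libraries, and 1 read was worth 0.0196 to 0.0214 CPM. All 10 beta-cell markers examined were listed, with summed levels of 7475 to 11658 CPM in control and 9031 to 16665 CPM in cytokine libraries. IAPP was the most abundant (2710.4 to 6746 CPM in control, 5361 to 12704 CPM in cytokine libraries). At an adjusted p below 0.05 and an absolute log2 difference above 0.5, limma called 6 of the 10 lower (ABCC8, G6PC2, MAFA, NKX2-2, PDX1 and SLC30A8), where 17.5% of all genes were. IAPP, NKX6-1 and PCSK1 were higher in each pair and not called in this fit, and INS was lower in 3 pairs. With the pairs as a block, limma called IAPP higher (log2 0.93). Under a second scaling between libraries, TMM, NKX2-2 was not called (log2 -0.37) and NKX6-1 was called higher (0.54). Of 13 markers of other cell types 7 were listed; their sum was 568 to 2267 CPM in control and 658 to 2081 CPM in cytokine libraries, most of it from SST, and CPA1 was called lower; the part of these markers in the results was not tested.

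Mitochondrially encoded RNA took a smaller share of the library after cytokine exposure in each of the 4 pairs. The 21 genes together held 14.8%, 14.6%, 5.90% and 8.46% of all reads in control libraries A, B, C and D. In the cytokine libraries A, B, C and D they held 10.8%, 10.9%, 4.15% and 6.13%. The share was 26.7%, 25.4%, 29.6% and 27.6% lower within pairs A, B, C and D, a mean log2 difference of -0.46 ± 0.036 (SD, n = 4 pairs). The conditions overlapped, because libraries A and B of either condition lay above libraries C and D. All reads here means the library total, not the reads on listed genes. Listed genes held 73.4% of that total in control D and 73.5% in cytokine D, and 79.0% to 79.9% in the other libraries. In bulk RNA fewer mitochondria or mitochondrial genomes per cell, less RNA from each, and a change in the cells present cannot be told apart. Nor can a rise of RNA from nuclear genes, which would lower this share by itself. The median log2 difference of single genes was -0.17 over all listed genes and -0.50 over these 21.

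**Figure D1:**
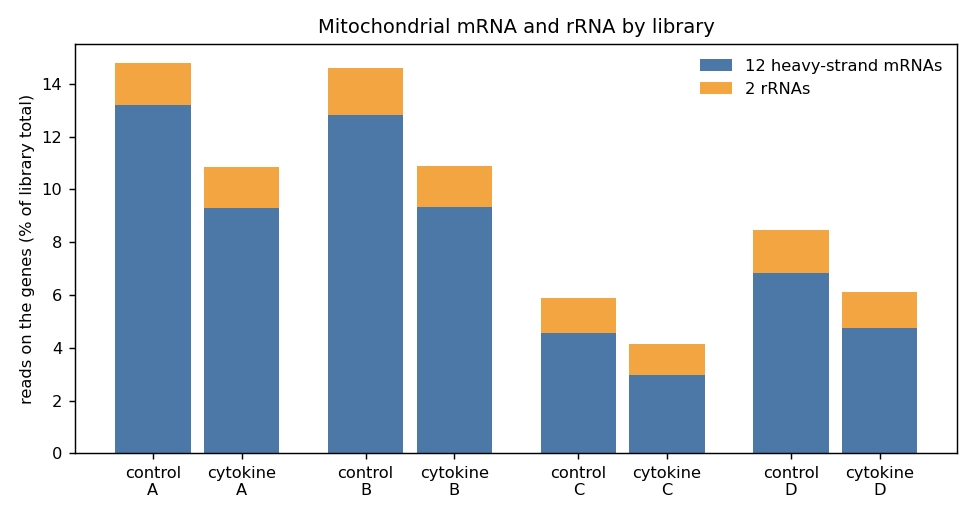
Bars show the share of all reads, in percent of the library total, on the 12 heavy-strand mRNA genes (blue) and the 2 rRNA genes (orange) in each of the 8 libraries, arranged by pair A to D. In each pair the cytokine bar is lower than the control bar, and the bars of pairs A and B are higher than those of C and D.

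By RNA class, the values within pairs were as follows, and the classes were not tested against each other. The 12 heavy-strand mRNAs together were lower by 29.5%, 27.2%, 34.4% and 30.4% in pairs A to D. The 2 rRNAs together were lower by 3.39%, 11.7%, 13.4% and 15.1%. The 3 light-strand genes together were lower by 51.5%, 58.6%, 28.3% and 81.2%, on a sum that never exceeded 0.00901% of a library. The mRNAs made up 77.1% to 89.2% of mitochondrial reads in control and 71.9% to 85.8% in cytokine libraries, with a lower share in the cytokine library of every pair.

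Genes were tested with limma on log2(CPM + 0.1) over all 16525 listed genes and called at a Benjamini-Hochberg adjusted p below 0.05 and an absolute log2 difference above 0.5. Without regard to pairs, limma called 0 of the 45 members higher and 1 lower (MT-TQ), where 27% of all genes were called, 9.52% higher and 17.5% lower. At an unadjusted p below 0.05 there were 6 of the 45 members, where 30.8% of all genes passed even the adjusted p alone. With edgeR under TMM scaling and with DESeq2, FASTKD2 was called higher, MT-TQ lower and no other member. The shares of all genes that these 2 tests called are not given here. With the pairs as a block in the same model, limma called 1 member higher and 10 lower, all of them mitochondrially encoded, where 35.4% of all genes were called, 11.6% higher and 23.8% lower. The 11 were the mRNAs MT-CO1, MT-CO3, MT-CYB, MT-ND3, MT-ND4, MT-ATP6 and MT-ND6 and the tRNAs MT-TQ, MT-TS1 and MT-TT, which fell, and the tRNA MT-TM, which rose. The median log2 difference was -0.50 over the 21 mitochondrial genes, -0.12 over the 24 nuclear members and -0.17 over all listed genes. After TMM scaling, which rests on the bulk of genes, the median over all genes was -0.02 and that of the mitochondrial genes -0.35. With it limma called 1 member higher (FASTKD2) and 1 lower (MT-TQ), where 24.7% of all genes were called, 13% higher and 11.7% lower. With TMM scaling and the block together limma called 3 members higher (MT-TI, MT-TM and FASTKD2) and 4 lower (MT-ND6, MT-ND3, MT-TQ and MT-TS1), where 32.2% of all genes were called, 15.8% higher and 16.4% lower. On the adjusted p alone, without a fold threshold, limma passed 1 member higher and 2 lower (30.8% of all genes, 10.7% higher and 20.2% lower), and with the block 4 higher and 25 lower (58.8% of all genes, 19.7% higher and 39.1% lower).

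**Figure D2:**
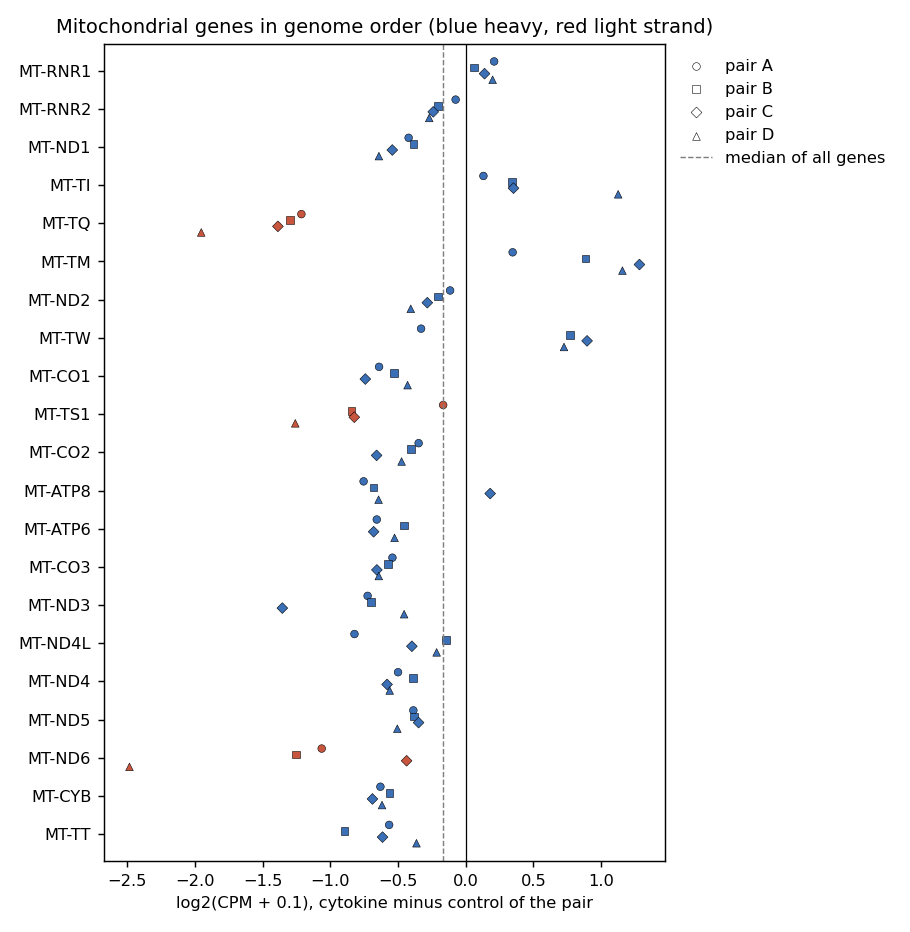
Each point is the log2(CPM + 0.1) of a cytokine library minus that of the control library of its pair, for the 21 mitochondrial genes in genome order, with heavy-strand genes in blue and light-strand genes in red; the dashed line is the median of all listed genes (-0.17). The heavy-strand mRNAs have mean differences of -0.81 to -0.25, those of the 2 rRNAs are 0.15 and -0.20, the 3 red genes lie to the left, and MT-TI and MT-TM lie to the right of 0.

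MT-CO1, MT-CO2 and MT-CO3 encode the catalytic core of cytochrome c oxidase, complex IV. MT-CO1 (ENSG00000198804, chrMT:5904-7445, heavy strand, GRCh38) was 32759.8, 32546, 9709 and 15752 CPM in control libraries A to D. It was 21012, 22508, 5803 and 11692 CPM in the cytokine libraries, lower in each pair while the conditions overlapped. Its log2 difference was -0.59 (SE 0.54, adjusted p = 0.446, limma), and in the block fit it fell (SE 0.065, adjusted p = 3.07e-06). MT-CO3 was 14513, 15986, 6112 and 10422 CPM in control libraries. In the cytokine libraries it was 9967, 10716, 3876 and 6674 CPM, lower by 31.3% to 36.6% within pairs. MT-CO3 had a log2 difference of -0.60 and fell with the block (adjusted p = 4.97e-07, limma; 0.292 without it). MT-CO2 stood at 7161 to 15879 CPM in control and 4535 to 12159 CPM in cytokine libraries, and its log2 difference of -0.47 missed the fold threshold in either fit. With 1 library left out, and so A and B against C and D no longer balanced, the unblocked value of MT-CO1 ran from -0.94 (without control C) to -0.18 (without cytokine C), and the unblocked values of the 12 heavy-strand mRNAs together from -1.07 (MT-ND3) to 0.12 (MT-ND4L).

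MT-CYB encodes cytochrome b, the mitochondrially encoded subunit of complex III. It was 11065, 10544, 3795 and 5868 CPM in control libraries A to D. After cytokine exposure it was 7145, 7128, 2353 and 3821 CPM. The decrease within pairs was uniform, at 35.4%, 32.4%, 38.0% and 34.9%, although the conditions overlapped. MT-CYB had a log2 difference of -0.63 (SE 0.44, adjusted p = 0.316, limma) and fell with the block (SE 0.054, adjusted p = 2.59e-07).

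The NADH dehydrogenase subunits of complex I gave the widest range among the heavy-strand mRNAs. MT-ND3 was 2406, 2606, 1172 and 969 CPM in control libraries and 1455, 1604, 458 and 706 CPM in cytokine libraries A to D. Its log2 difference of -0.81 was the most negative of the 12, with an adjusted p of 0.190 without and 1.13e-05 with the block (limma), and it was the only heavy-strand mRNA that also fell under TMM scaling with the block (log2 -0.66, adjusted p = 8.99e-05, limma). MT-ND4 was 17819, 15713, 4657 and 7807 CPM in control and 12595, 11985, 3112 and 5287 CPM in cytokine libraries. It had a log2 difference of -0.51 and fell with the block (adjusted p = 3.95e-06, limma; 0.519 without it). MT-ND1 (log2 -0.50), MT-ND5 (-0.41), MT-ND4L (-0.40) and MT-ND2 (-0.25) passed the adjusted p in the block fit but not the fold threshold. MT-ND2, the least negative, was lower by 7.72%, 13.4%, 17.9% and 24.6% in pairs A to D.

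MT-ATP6 and MT-ATP8 encode ATP synthase subunits from overlapping reading frames. MT-ATP6 was 5688, 4825, 1576 and 2082 CPM in control and 3605, 3515, 983 and 1445 CPM in cytokine libraries A to D. Its log2 difference was -0.58, and it fell with the block (adjusted p = 8.48e-07, limma; 0.425 without it). MT-ATP8 was 378, 347, 143 and 237 CPM in control and 224, 217, 162 and 151 CPM in cytokine libraries. It was the only mRNA not lower in every pair, being 13.3% higher in pair C, and its log2 difference of -0.48 was not called in either fit, though limma called it lower without control C (log2 -0.76). The stretch of 46 bases shared by the frames is shown because the default setting of the counter leaves out reads that it cannot assign to a single gene; how many were left out of MT-ATP8, a gene of 207 bases, was not tested. MT-ND4L and MT-ND4 overlap in the same way by 7 bases. Capitals mark the start codon of the downstream frame and the stop codon of the upstream frame (GRCh38, chrMT:8527-8572 and chrMT:10760-10766).
MT-ATP8 and MT-ATP6 overlap: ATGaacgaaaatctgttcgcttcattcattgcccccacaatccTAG
MT-ND4L and MT-ND4 overlap: ATGcTAA

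Per kilobase of gene, MT-CO2, MT-CO3 and MT-CO1 had the highest means over the control libraries, 17182, 14998 and 14716 CPM per kb (n = 4). The order differed between libraries, since MT-CO1 lay above MT-CO3 in A and B and below it in C and D, and in control C the rRNA MT-RNR2 (7940 CPM per kb) lay above MT-CO3 (7796) and MT-CO1 (6296). The remaining heavy-strand mRNAs had means of 1334 (MT-ATP8) to 8345 (MT-ND4) CPM per kb. The light-strand mRNA MT-ND6 had a mean of 73.0 CPM per kb. MT-RNR2, the large rRNA, had 9357 CPM per kb and MT-RNR1, the small rRNA, 1270.5 CPM per kb. All levels here, those of MT-ND6, the rRNAs and the tRNAs among them, are those recovered by a library kit made for mRNA. Whether recovery differed between genes or between libraries was not tested.

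**Figure D3:**
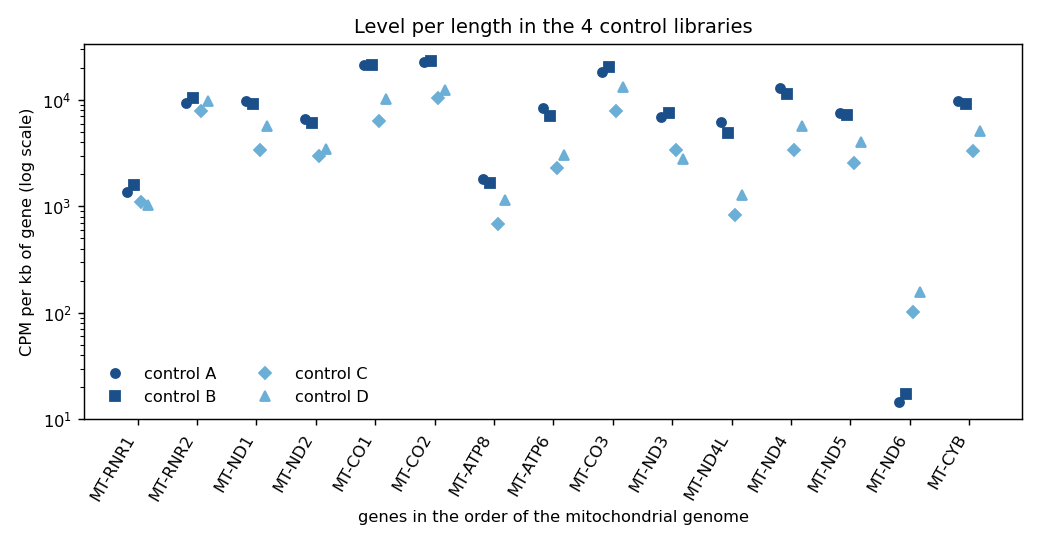
CPM per kilobase of gene (log scale) of the 13 mRNA and 2 rRNA genes in the 4 control libraries, in genome order. MT-CO1, MT-CO2 and MT-CO3 are highest in controls A, B and D, in control C MT-RNR2 lies above MT-CO3 and MT-CO1, MT-ND6 is lowest in all 4, and libraries A and B (dark) lie above C and D (light) for the heavy-strand mRNAs and below them for MT-ND6.

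For the heavy-strand mRNAs, libraries A and B differed from C and D more than cytokine and control libraries did. Over control libraries the mean of A and B was 1.84-fold (MT-CO3) to 5.31-fold (MT-ND4L) that of C and D for these mRNAs. For MT-RNR1 and MT-RNR2 it was 1.38-fold and 1.12-fold. The light-strand genes went the other way, with C and D at 8.16-fold the mean of A and B for MT-ND6, 3.30-fold for MT-TS1 and 1.58-fold for MT-TQ. MT-TI, a heavy-strand tRNA gene of few reads, was 31.0-fold higher in A and B. The middle part of the name is all that the table says of this division, which holds both conditions equally, so the values are given by pair throughout.

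As a share of the heavy-strand mRNA pool, which does not depend on the scaling between libraries, the mRNAs differed as follows. MT-CO1 held 21.3% to 25.4% of the pool in control and 19.4% to 24.6% in cytokine libraries. MT-CYB held a smaller share after cytokine exposure in all 4 pairs, with log2 differences of the share from -0.13 to -0.08, and so did MT-CO3, from -0.12 to -0.04. MT-ND2 held a larger share in all 4 pairs, from 0.12 to 0.39, and MT-ND5 did so from 0.02 to 0.26. The remaining 8 shares, MT-CO1 among them, had mixed directions. The widest log2 differences within a pair were 0.79 for MT-ATP8 (0.314% to 0.542%) and -0.75 for MT-ND3 (2.57% to 1.53%), both in pair C, and MT-ND4L had -0.32, 0.31, 0.21 and 0.31 in pairs A to D. These shares were not tested.

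The rRNAs form the small and large subunits of the mitochondrial ribosome and lie directly downstream of the heavy-strand promoter. MT-RNR1 (chrMT:648-1601) was 1289.8, 1522, 1048 and 988 CPM in control and 1491, 1586, 1154 and 1134 CPM in cytokine libraries A to D, higher in all 4 pairs. MT-RNR2 (chrMT:1671-3229) was 14607, 16232, 12378 and 15135 CPM in control and 13867, 14095, 10477 and 12551 CPM in cytokine libraries, lower in all 4 pairs. Their log2 differences were 0.15 and -0.20, neither past the fold threshold in any of these fits, and that of MT-RNR2 was -0.05 after TMM scaling. The ratio of MT-RNR2 to MT-RNR1 was 11.3, 10.7, 11.8 and 15.3 in control and 9.30, 8.89, 9.08 and 11.1 in cytokine libraries, lower in each pair with an overlap between conditions. The log2 difference of the ratio was -0.35 (2-sided exact permutation test, p = 0.0571; 0.143 adjusted over 5 ratios), while the smallest p that 4 against 4 libraries allow is 0.0286. MT-CO1 relative to MT-RNR2 was likewise lower in each pair, with a log2 difference of -0.39 (exact permutation p = 0.486, adjusted p = 0.571), which was -0.66 without control C and -0.078 without cytokine C.

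MT-ND6, a complex I subunit and the sole mRNA of the light strand (ENSG00000198695, chrMT:14149-14673), was 7.59, 9.14, 53.4 and 83.1 CPM in control libraries A to D. It was 3.58, 3.78, 39.4 and 14.8 CPM in cytokine libraries, which is 52.9%, 58.7%, 26.2% and 82.2% lower within pairs. Every cytokine library lay below its own control, but those of C and D lay above the controls of A and B. The log2 difference was -1.31 (SE 0.90, adjusted p = 0.301, limma), and MT-ND6 fell in the block fit (SE 0.22, adjusted p = 0.000140). Left out singly, libraries moved the unblocked value between -1.99 (without cytokine C) and -0.71 (without control D). Relative to MT-CYB on the opposite strand, MT-ND6 was lower in 3 pairs and higher in pair C, with a log2 difference of -0.70 (exact permutation p = 0.571). This ratio had a difference near 0 without control C (0.000955) and without control D (0.00391). The strand setting of the counter is given only as its default. Whether it matched the strand-specific kit, and whether reads of the opposite strand enter the counts of MT-ND6, MT-TQ, MT-TS1 and the other genes compared by strand, was not tested.

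The 6 tRNA genes listed are 66 to 72 bases long and held 8 to 325 reads per library, so counting error is large. The reads of the study are longer than these genes, and the counter leaves out reads that it cannot assign to a single gene. How many were left out, and whether those counted came from tRNAs or from longer RNAs, was not tested. MT-TQ, the tRNA for glutamine on the light strand, had 94, 79, 114 and 182 reads in control libraries A to D, or 2.01, 1.67, 2.27 and 3.56 CPM. In cytokine libraries it had 38, 29, 40 and 42 reads, or 0.809, 0.619, 0.805 and 0.844 CPM. The conditions did not overlap. MT-TQ fell by 1.46 on the log2 scale (SE 0.26, adjusted p = 0.00185, limma), and the value lay between -1.61 and -1.26 with any library left out. MT-TS1, a serine tRNA of the light strand, was 0.706, 0.847, 1.75 and 3.36 CPM in control and 0.617, 0.427, 0.946 and 1.35 CPM in cytokine libraries. It had a log2 difference of -0.77 and fell with the block (adjusted p = 0.0127, limma; 0.245 without it).

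The heavy-strand tRNA genes on either side of MT-TQ had higher values in the cytokine library of each pair. MT-TM, the methionine tRNA, was 0.984, 0.741, 0.239 and 0.215 CPM in control and 1.28, 1.45, 0.725 and 0.603 CPM in cytokine libraries, a log2 difference of 0.92 (adjusted p = 0.151, limma), and it rose with the block (adjusted p = 0.00873). MT-TI, the isoleucine tRNA, was 6.16, 5.46, 0.199 and 0.176 CPM in control and 6.75, 6.94, 0.282 and 0.502 CPM in cytokine libraries, higher in each pair. Its log2 difference of 0.49 was called higher only with TMM scaling and the block, and turned negative without control C (-0.22), control D (-0.26), cytokine A (-0.15) or cytokine B (-0.16). MT-TW, for tryptophan, was higher in 3 pairs (log2 0.51, not called). MT-TT, for threonine and next to MT-CYB, was 2.82, 2.39, 0.577 and 1.19 CPM in control and 1.87, 1.24, 0.342 and 0.904 CPM in cytokine libraries, and fell with the block (log2 -0.61, adjusted p = 0.0234, limma; 0.422 without it). Across the 21 mitochondrial genes 16 were lower and 3 higher in all 4 pairs, where 43.6% and 22.2% of all genes were (65.8% in either direction).

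The genes for MT-TI, MT-TQ and MT-TM lie side by side at chrMT:4263-4331, chrMT:4329-4400 and chrMT:4402-4469, and their sequences are shown because the middle one, on the opposite strand, had a difference of the opposite sign. Capitals in MT-TI and MT-TQ mark the 3 bases where the genes overlap on opposite strands. MT-TS1 (chrMT:7446-7514) is shown as the other light-strand tRNA. Sequences are those of GENCODE 29 transcripts (GRCh38), 5′ to 3′ on the strand of each gene.
MT-TI: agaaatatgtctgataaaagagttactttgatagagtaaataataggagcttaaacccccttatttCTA
MT-TQ: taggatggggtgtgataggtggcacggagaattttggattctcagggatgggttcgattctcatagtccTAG
MT-TM: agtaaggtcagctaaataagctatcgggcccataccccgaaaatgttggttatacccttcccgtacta
MT-TS1: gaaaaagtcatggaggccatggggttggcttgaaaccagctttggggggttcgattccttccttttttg

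**Figure D4:**
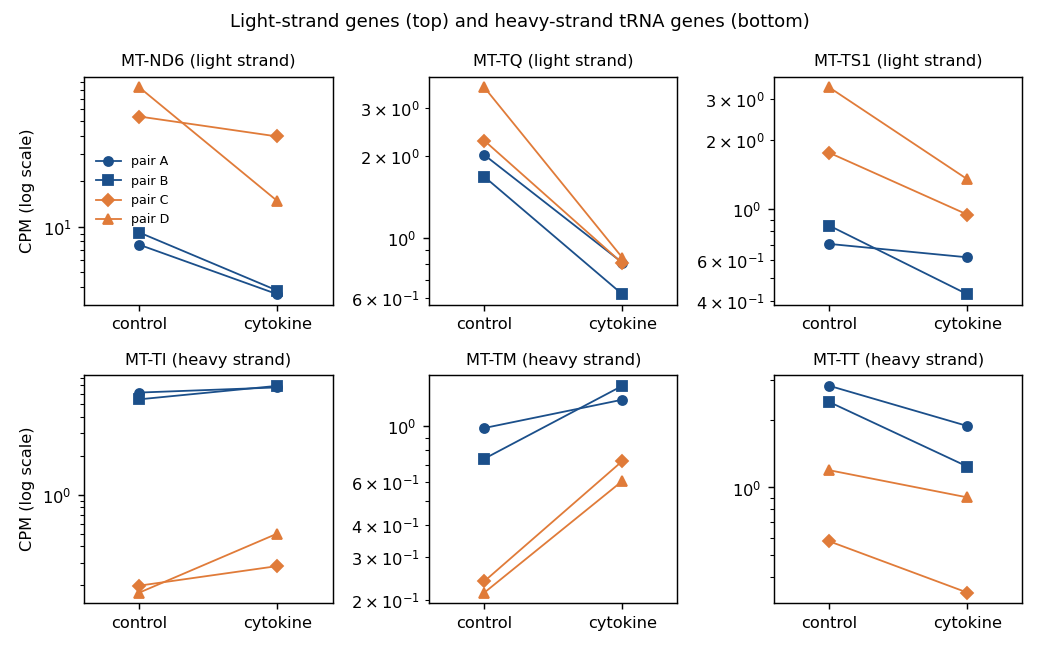
CPM (log scale, a separate axis for each gene) of the 3 light-strand genes (top) and of 3 heavy-strand tRNA genes (bottom) in control and cytokine libraries, with lines joining the libraries of a pair. All lines slope down for MT-ND6, MT-TQ, MT-TS1 and MT-TT and up for MT-TI and MT-TM, and for MT-TQ alone the cytokine points (0.619 to 0.844 CPM) lie below all control points (1.67 to 3.56 CPM).

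Of the 24 nuclear members limma called 0 in either direction, with or without the block, where 27% of all genes were called, and 35.4% with the block. An unadjusted p below 0.05 was found for 5 of the 24, where 30.8% of all genes passed even the adjusted p alone. edgeR with TMM scaling and DESeq2 each called FASTKD2 higher and no other nuclear member, and their shares of all genes called are not given here. In 1 nuclear gene the conditions did not overlap and the cytokine libraries were higher (FASTKD2), and in 3 they were lower (POLRMT, TFB1M and MTERF4), where 10.8% and 21.9% of all genes did so (32.8% in either direction). The nuclear members, at a median log2 difference of -0.12, stood close to the median of all listed genes.

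**Figure D5:**
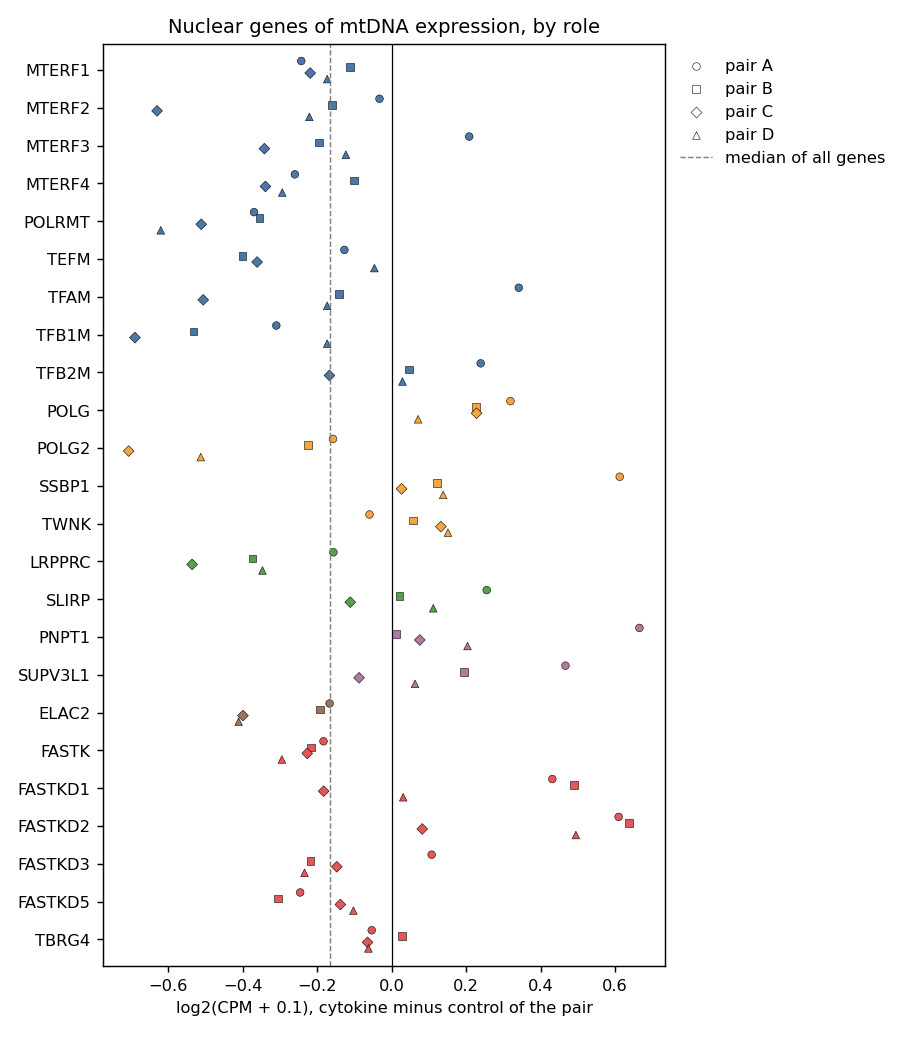
Each point is the log2(CPM + 0.1) of a cytokine library minus that of the control library of its pair for the 24 nuclear members, ordered and coloured by role (transcription, replication, mRNA stability, degradosome, tRNA processing, FASTK family); the dashed line is the median of all listed genes (-0.17). All 4 points of POLRMT lie left of the dashed line and all 4 of FASTKD2 lie right of 0.

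The 9 genes grouped under transcription include TFB1M and MTERF4, whose roles given below concern the mitochondrial ribosome. POLRMT, the mitochondrial RNA polymerase, was 56.5, 56.9, 71.4 and 64.7 CPM in control libraries A to D. In cytokine libraries it was 43.7, 44.5, 50.05 and 42.1 CPM. Its log2 difference was -0.46 (SE 0.12, adjusted p = 0.0131, limma), past the adjusted p but short of the fold threshold of 0.5. With CPM computed over nuclear genes only the difference was -0.53 and POLRMT was called lower, and after TMM scaling it was -0.31. TFB1M, a methyltransferase of the small rRNA, was 5.20, 5.76, 7.01 and 5.49 CPM in control and 4.17, 3.95, 4.31 and 4.86 CPM in cytokine libraries, a log2 difference of -0.43 (adjusted p = 0.0730, limma). MTERF4, which acts in assembly of the mitochondrial ribosome, was 26.02, 24.4, 25.3 and 27.5 CPM in control and 21.7, 22.7, 19.97 and 22.4 CPM in cytokine libraries (log2 -0.25, adjusted p = 0.113, limma). TFB2M, the initiation factor that opens the promoter, had a log2 difference of 0.04. TFAM, which packages and bends the DNA, was 7.12, 9.36, 18.4 and 15.2 CPM in control and 9.05, 8.48, 12.9 and 13.5 CPM in cytokine libraries, with a log2 difference of -0.12 that became 0.03 after TMM scaling. The elongation factor TEFM (-0.23) and MTERF1 (-0.19) were lower in all 4 pairs, as was MTERF2 (-0.26). MTERF3, a repressor of initiation, was lower in 3 pairs (-0.11; 0.04 after TMM scaling).

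The 4 replication genes had differences of both signs and none was called. POLG, the catalytic subunit of DNA polymerase gamma, was 32.3, 38.2, 45.1 and 46.3 CPM in control and 40.3, 44.7, 52.8 and 48.6 CPM in cytokine libraries, higher in each pair (log2 0.21, adjusted p = 0.298, limma). Its accessory subunit POLG2 was 13.2 to 19.1 CPM in control and 8.05 to 16.4 CPM in cytokine libraries, lower in each pair (log2 -0.40, adjusted p = 0.195). In the block fit both passed the adjusted p (0.0196 and 0.00537, limma) and neither the fold threshold. The single-strand binding protein SSBP1 was higher in each pair (log2 0.22; -0.02 without control A), and the helicase TWNK in 3 pairs (log2 0.07).

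LRPPRC and SLIRP form the complex that keeps mitochondrial mRNAs stable. LRPPRC was 85.7, 101, 121 and 112 CPM in control and 76.9, 78.1, 83.3 and 88.2 CPM in cytokine libraries, lower in each pair with cytokine D just above control A. Its log2 difference was -0.35 (SE 0.13, adjusted p = 0.0571, limma; 0.000514 with the block, still short of the fold threshold). SLIRP was 8.83 to 14.6 CPM in control and 10.6 to 13.5 CPM in cytokine libraries, a log2 difference of 0.07. The ratio of LRPPRC to SLIRP reads was 9.71, 9.53, 8.30 and 9.68 in control and 7.28, 7.24, 6.19 and 7.04 in cytokine libraries, without overlap. The log2 difference of the ratio was -0.42, with -0.41, -0.40, -0.42 and -0.46 in pairs A to D, at the smallest p the design allows (2-sided exact permutation test, p = 0.0286) and not below 0.05 after adjustment over 5 ratios (0.143).

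PNPT1, the exoribonuclease of the mitochondrial degradosome and a gene known to respond to type I interferon, was 14.1, 18.7, 21.1 and 24.5 CPM in control libraries A to D. It was 22.4, 18.9, 22.3 and 28.2 CPM in cytokine libraries, higher in each pair, by 0.67 on the log2 scale in A and by 0.01 to 0.20 in the others. Its log2 difference of 0.24 had an SE of 0.18 (adjusted p = 0.361, limma). Under TMM scaling and the block the difference was 0.39 (adjusted p = 0.00299, limma), below the fold threshold. Its helicase partner SUPV3L1 had a log2 difference of 0.16, and the ratio of PNPT1 to SUPV3L1 one of 0.08 (exact permutation p = 0.543, adjusted p = 0.571). ELAC2, which cuts tRNAs at their 3′ end, was 34.7, 36.2, 49.4 and 43.5 CPM in control and 30.9, 31.6, 37.4 and 32.7 CPM in cytokine libraries (log2 -0.29, adjusted p = 0.137; 0.00429 with the block, limma).

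The FASTK family, RNA-binding proteins of mitochondria, held the single nuclear member that any of these fits called higher. FASTKD2, needed for assembly of the large ribosomal subunit with MT-RNR2, was 14.6, 14.8, 19.8 and 18.5 CPM in control and 22.3, 23.04, 20.997 and 26.2 CPM in cytokine libraries, without overlap. Its log2 difference was 0.46 (SE 0.14, adjusted p = 0.0334, limma), which passed the adjusted p alone, and under TMM scaling FASTKD2 rose past both thresholds (log2 0.61, adjusted p = 0.00266, limma). With 1 library left out the limma adjusted p was 0.0184 to 0.0963, and it was above 0.05 without control A or B or cytokine A, B or D. FASTK, which stabilises MT-ND6 mRNA, was 103, 99.8, 83.0 and 81.4 CPM in control and 91.0, 85.9, 70.9 and 66.3 CPM in cytokine libraries, lower in each pair (log2 -0.23, adjusted p = 0.242; 0.00451 with the block, limma). FASTKD1 (log2 0.19), FASTKD3 (-0.12), FASTKD5 (-0.20) and TBRG4 (-0.04) were not called, and FASTKD3 and TBRG4 were at 0.03 and 0.11 after TMM scaling.

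Promoter windows from RefSeq (GRCh38.p14, 250 bases before to 50 after the annotated start) were found for 21 of the 24 nuclear members and searched on both strands for 4 motifs. The NRF1 sequence, GCGCA followed by its reverse complement TGCGC, was present in POLRMT and TFB1M, where 1.24% of 35116 promoters hold it. The ETS core CCGGAAG, bound by GABP, was present in 10 of these 21 members, among them POLRMT, TFB1M and MTERF4, and in 10.3% of all promoters. Members are counted by gene, over 24 windows, and the percentages by window, so the units are unlike and enrichment was not tested. The GAS sequence TTCNNNGAA, an element of interferon-responsive promoters, was present in PNPT1 and SUPV3L1 (7.66% of all promoters), and GAAA repeated after any 2 bases, a core of the interferon-stimulated response element, in SSBP1 alone (3.57%). Motifs and the windows printed were chosen after the values and matches were seen, windows of LRPPRC and FASTKD2 held none of the 4, and a match is a description of the letters only. POLRMT and TFB1M are shown because their levels did not overlap between conditions and they share both motifs, and PNPT1 as the degradosome nuclease. Each line gives the 250 bases before the start on the gene's own strand, the minus strand, at chr19:633538-633787, chr6:155314485-155314734 and chr2:55693845-55694094, with motif matches in capitals.
POLRMT: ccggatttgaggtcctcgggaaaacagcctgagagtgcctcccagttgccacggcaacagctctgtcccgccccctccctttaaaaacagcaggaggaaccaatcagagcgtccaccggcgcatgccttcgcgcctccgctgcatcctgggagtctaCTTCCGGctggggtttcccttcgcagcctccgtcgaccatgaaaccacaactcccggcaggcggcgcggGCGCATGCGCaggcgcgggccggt
TFB1M: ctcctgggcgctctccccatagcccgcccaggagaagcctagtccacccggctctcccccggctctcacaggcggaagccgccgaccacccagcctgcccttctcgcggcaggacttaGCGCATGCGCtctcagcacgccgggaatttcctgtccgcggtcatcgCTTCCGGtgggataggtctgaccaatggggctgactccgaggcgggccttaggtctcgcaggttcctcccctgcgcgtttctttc
PNPT1: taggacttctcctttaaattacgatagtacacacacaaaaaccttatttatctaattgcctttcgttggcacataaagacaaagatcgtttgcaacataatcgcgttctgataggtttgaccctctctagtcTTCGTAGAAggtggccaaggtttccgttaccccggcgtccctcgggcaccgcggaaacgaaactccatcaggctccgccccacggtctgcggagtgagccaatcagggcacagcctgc

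Of 58 further genes of mitochondrial DNA maintenance, RNA modification, RNA decay, translation and biogenesis, 55 were listed, and limma called 2 higher and 2 lower, where 27% of all genes were called, and 2 higher and 4 lower with the block (35.4%). After TMM scaling the counts were 4 higher and 1 lower (24.7% of all genes), and 6 higher and 1 lower with the block (32.2%). The median log2 difference was -0.08, and 0.07 after TMM scaling. TYMP, the thymidine phosphorylase that degrades thymidine, was 3.44, 3.51, 4.04 and 3.26 CPM in control and 91.2, 96.5, 67.1 and 74.7 CPM in cytokine libraries. It rose by 4.48 on the log2 scale (SE 0.15, adjusted p = 6.94e-09, limma). TK2, the thymidine kinase of the mitochondrial matrix, was 15.4 to 19.3 CPM in control and 9.93 to 12.5 CPM in cytokine libraries and fell (log2 -0.68, adjusted p = 0.00360, limma). PPRC1, a coactivator related to PGC-1, was 30.4 to 38.7 CPM in control and 47.9 to 68.1 CPM in cytokine libraries and rose (log2 0.73, adjusted p = 0.00392, limma). GTPBP3, which modifies mitochondrial tRNAs, was 15.5 to 19.9 CPM in control and 10.6 to 13.0 CPM in cytokine libraries and fell (log2 -0.60, adjusted p = 0.00654, limma), though it was not called after TMM scaling (log2 -0.44). The transcription factors NRF1 (log2 0.04) and GABPA (log2 -0.28) were not called.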

How the data were processed

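Per the labels and the study's methods, strand-specific mRNA libraries were sequenced as paired reads, aligned to GRCh38 with TopHat2 2.1.1 and counted with HTSeq 0.9.1 at default settings, and the authors deposited CPM values filtered on low expression. All values were whole multiples of 1 read (tolerance 0.01 read), so reads were recovered. Library totals were 46767972 to 51145634 reads. Another 4 value columns of the table were not used. Some marker genes examined are not reported here. The members and gene lists were chosen with earlier results of these data known.

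The main test was limma 3.58.1 (R 4.3.3) with a trend on intensity, applied to log2(CPM + 0.1) of 4 control against 4 cytokine libraries and no block, with Benjamini-Hochberg adjustment over 16525 genes. Fold changes are on this scale. Ratios were compared by 2-sided exact permutation tests. Pairs A to D come from the start of the column names, which carry no replicate number. Deviations from the group means correlated by 0.457, 0.504, 0.748 and 0.681 within pairs, so the libraries were also fitted as pairs; A and B were not told apart (0.447 and 0.489 across them). No library was a copy of another (chi-square per gene of 6.06 or more). A and B were the most alike, at 13.4 in control and 6.06 in cytokine libraries, against 75.2 to 296 for all other combinations. The block fits and the SD over 4 pairs count A and B as separate pairs, which the labels do not establish. Alternatives used edgeR 4.0.16, DESeq2 1.42.0, other scalings, pseudocounts, filters and thresholds, and left out each library. Members called, without overlap or highest in their role are given by library, and others by range or log2 difference. Tables and figures used Python 3.11.15, pandas 2.3.3, numpy 2.4.6, scipy 1.17.1 and matplotlib 3.10.9. The limma script was tested on simulated data.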

Additional observations from a re-analysis of the deposited data

Results flagged for a closer look

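A library that stood apart from the other 3 of its condition (Dixon's test) was found in 2 of 100 groups examined, where chance gives about 1 in 20. TBRG4, an RNA-binding protein of the FASTK family, was 40.2 CPM in control C and 32.4 to 33.6 CPM in the other control libraries. The ratio of LRPPRC to SLIRP was 8.30 in control C and 9.53 to 9.71 in the other control libraries. The log2 difference of that ratio was -0.48 without control C, and that of TBRG4 was 0.03.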

How the results depend on the processing

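Fitting A to D as a replicate block raised the calls among members from 0 to 1 higher and from 1 to 10 lower, all mitochondrial (1 and 10). Calls among all genes rose with it too, from 9.52% to 11.6% higher and from 17.5% to 23.8% lower. A term separating the pair A and B from the pair C and D gave 1 and 7, all mitochondrial. With TMM and the block, edgeR and limma each gave 3 higher and 4 lower (mitochondrial 2 and 4), and nuclear CPM with the block gave 1 and 14 (1 and 13). Of all genes, limma with TMM and the block called 15.8% higher and 16.4% lower. For the term separating the pairs, nuclear CPM, median-of-ratios, edgeR and DESeq2 the shares of all genes are not given here. Counts from those fits are therefore not set against all genes. The limma fits that combine a scaling with the block were chosen after seeing the data. Without the block, TMM, median-of-ratios, edgeR with TMM, DESeq2 and the adjusted p alone each gave 1 higher, and nuclear CPM and the adjusted p alone gave 2 lower. Leaving out 1 library gave 0 to 1 higher and 1 to 2 lower (mitochondrial 0 higher and 1 to 2 lower), and 3899 to 4339 calls over all genes. There was 1 higher without control C, control D or cytokine C, and 2 lower without control A, control B, control C or cytokine C.

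Small log2 differences changed sign. Under TMM (with and without the block), median-of-ratios and edgeR with TMM and block, TFAM was 0.032, 0.042 and 0.022. FASTKD3 was 0.027, 0.036 and 0.026, and 0.020 and 0.030 with edgeR and DESeq2. MTERF3 was 0.038, 0.047 and 0.035, and 0.027 and 0.036 with edgeR and DESeq2. TBRG4 was 0.11, 0.12 and 0.11, and 0.12 and 0.13 with edgeR and DESeq2. TFB2M was -0.023 with nuclear CPM. Leaving out 1 library gave -0.016 to 0.46 for SSBP1, -0.075 to 0.20 for TWNK, -0.36 to 0.097 for TFAM, -0.045 to 0.19 for SLIRP, -0.099 to 0.032 for TBRG4, -0.0091 to 0.25 for SUPV3L1, -0.11 to 0.21 for TFB2M, -0.26 to 1.24 for MT-TI, -0.91 to 0.12 for MT-ND4L and -1.71 to 0.00391 for the ratio of MT-ND6 to MT-CYB. The causes were not tested. No other member or ratio changed sign under these alternatives. Without control C, MT-ATP8 was called lower (-0.76). The tRNA genes rest on few reads, and the heavy-strand mRNAs differ more between A and B and C and D than between conditions.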

Other observations

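7 pseudogenes of mitochondrial genes on nuclear chromosomes were listed (MTCO3P12, MTND2P28, MTND1P23, MTCO2P12, MTCO1P12, MTND4P12 and MTATP6P1). Such copies can resemble their mitochondrial source closely, so a read can match both. The counter leaves out reads that it cannot assign to a single gene. Counts of the pseudogenes and of their mitochondrial sources, levels per kilobase included, are therefore uncertain. How many reads were left out was not tested. Together they held 0.333%, 0.302%, 0.0558% and 0.0737% of the reads in control libraries A to D and 0.231%, 0.235%, 0.0390% and 0.0710% in cytokine libraries. MTATP6P1, the most abundant, was 1851, 1623, 216 and 275 CPM in control libraries, against 5688, 4825, 1576 and 2082 CPM for MT-ATP6. It was 1184, 1227, 146 and 235 CPM in cytokine libraries, lower in each pair, with a log2 difference of -0.46 (adjusted p = 0.726; 3.85e-05 with the block, limma). limma called 0 of the 7, with or without the block, where 35.4% and 27% of all genes were called, and 0 had an unadjusted p below 0.05 without it.

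On the adjusted p alone 3 of the 55 further genes were higher and 5 lower, where 10.7% and 20.2% of all genes were. The conditions did not overlap in 4 that were higher and 6 that were lower (10.8% and 21.9% of all genes). Some genes of mitochondrial RNA metabolism passed the adjusted p without reaching the fold threshold. GRSF1, a protein of the mitochondrial RNA granules, was 129, 137, 142 and 125 CPM in control and 108, 99.9, 89.5 and 92.2 CPM in cytokine libraries, without overlap (log2 -0.45, adjusted p = 0.00931, limma). TRMU, which thiolates mitochondrial tRNAs, was 34.1 to 41.0 CPM in control and 23.4 to 29.1 CPM in cytokine libraries, without overlap (log2 -0.46, adjusted p = 0.0129, limma). REXO2, an oligoribonuclease, was 9.47 to 11.2 CPM in control and 7.56 to 8.33 CPM in cytokine libraries (log2 -0.38, adjusted p = 0.0471, limma). The release factor MTRF1L was 11.4 to 15.9 CPM in control and 16.2 to 19.8 CPM in cytokine libraries, without overlap (log2 0.48, adjusted p = 0.0263, limma), and was called higher with TMM scaling (log2 0.63, adjusted p = 0.00347). These 4 genes were chosen after their values were seen.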
